A study of Mus musculus with 5 samples.

Results

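The nuclear-encoded genes of the mitochondrial respiratory chain were followed in nuclei of the mouse central amygdala (CeA). They were taken by symbol from the 22532 genes of the count tables: every symbol beginning with Nduf, Uqcr or Atp5, or with Cox followed by 4 to 8, together with Sdha, Sdhb, Sdhc, Sdhd and Cyc1, without pseudogenes and without the Ndufaf assembly factors. This gave 89 genes, of which 40 were counted in complex I, 4 in complex II, 9 in complex III, 18 in complex IV and 18 in complex V. Ndufa4 was counted in complex I by its symbol, although its protein is now assigned to complex IV. Of the 89 genes, 87 had at least 1 UMI (unique molecular identifier, 1 counted RNA molecule) in the nuclei kept for analysis. Ndufb11b and Cox8b had none, and Cox8c had 1.

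The respiratory chain sits in the inner mitochondrial membrane. Complexes I and II pass electrons from NADH and succinate to coenzyme Q, complex III passes them to cytochrome c, and complex IV passes them to oxygen. The proton gradient that complexes I, III and IV build drives complex V, the ATP synthase. A few core subunits are encoded by the mitochondrial genome (symbols with mt-), whereas all others, and the whole of complex II, are encoded in the nucleus, transcribed there and translated in the cytosol. Neurons depend on this chain for most of their ATP, and astrocytes are known for a stronger use of glycolysis.

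CeA tissue was processed into 5 single-nucleus libraries, 3 from fed and 2 from fasted mice, and each library pooled the tissue of 1 male and 1 female mouse. Fed replicates 1 and 2 were C57BL6 mice of 8 weeks. Fed replicate 3 came from Htr2a-Cre mice of 12 weeks, a bacterial artificial chromosome line carrying Cre under Htr2a control, which the study injected with a Cre-dependent mCherry virus. Fasted replicates 1 and 2 were C57BL6 mice of 8 weeks that went without food for 20 h and 21 h. In the study, each fasted library shared a preparation batch with a fed library, and the remaining fed library was a batch of its own. The replicate numbers 1 and 2 are taken here to mark the shared batches, which the labels do not state. On that reading the Htr2a-Cre library is the separate batch, and its genotype and age cannot be told apart from it.

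The tables held 23839 barcodes. Nuclei with 500 to 8000 detected genes and less than 0.8% of UMIs from mt- genes were kept (7161, 1130 to 1734 per library, with 9763452 to 29703855 UMIs per library), and the 13537 barcodes with at least 5% mt- UMIs (123 to 4800 per library) were summed separately as mt-rich barcodes. Gates on marker genes gave 4951 inhibitory nuclei (at least 2 UMIs of Gad1 and Gad2), 480 astrocyte-like, 185 oligodendrocyte-like, 89 OPC-like (oligodendrocyte precursor) and 88 microglia-like nuclei, and 1267 nuclei passed no gate. All 10 astrocyte markers were detected in the astrocyte-like nuclei of each library, at a summed 17812 to 26200 CPM (UMIs of a gene per 1000000 UMIs of the same nuclei) against 329 to 531 in inhibitory nuclei. Of the astrocyte-like nuclei, 16.9 to 51.6% per library nevertheless carried a Gad1 or Gad2 UMI. Free RNA in the droplets and doublets cannot be told apart here. The median mt- share of kept nuclei differed between the groups: it was 0.136%, 0.0788% and 0.0529% in fed replicates 1 to 3 and 0.317% and 0.237% in fasted replicates 1 and 2.

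The members differ widely in the length of their genes, and the short and the long ones behaved differently below. The start regions of 4 genes that the results below name are shown: Cox8a (a small structural subunit of complex IV), Ndufs4 (an accessory subunit of complex I whose loss causes a Leigh-like disease in mice), and Sdha and Sdhb (the flavin and the iron-sulfur subunit of complex II). A relation of these sequences to the levels was not tested. In GRCm39 with GENCODE vM39, Cox8a lies on the minus strand at chr19:7192515-7194997 and spans 2.48 kb, and Ndufs4 lies on the minus strand at chr13:114421982-114524794 and spans 103 kb. Sdha lies at chr13:74469359-74498436 (minus strand, 29.1 kb) and Sdhb at chr4:140688502-140709380 (plus strand, 20.9 kb). The sequences below are RefSeq windows of 300 bases on GRCm38.p6, 250 before and 50 from the transcription start on, written 5′ to 3′ on the gene's strand. Their coordinates on that build are chr19:7217567-7217866 for Cox8a, chr13:114388045-114388344 for Ndufs4, chr13:74350191-74350490 for Sdha and chr4:140961021-140961320 for Sdhb. Capitals mark matches, on either strand, to the motif of NRF1 (GCGCANGC, or GCNTGCGC on the other strand), of ETS factors such as GABPA (CCGGAAG or CTTCCGG) and of YY1 (AAGATGGC or GCCATCTT), factors known to act at promoters of respiratory genes.
Cox8a: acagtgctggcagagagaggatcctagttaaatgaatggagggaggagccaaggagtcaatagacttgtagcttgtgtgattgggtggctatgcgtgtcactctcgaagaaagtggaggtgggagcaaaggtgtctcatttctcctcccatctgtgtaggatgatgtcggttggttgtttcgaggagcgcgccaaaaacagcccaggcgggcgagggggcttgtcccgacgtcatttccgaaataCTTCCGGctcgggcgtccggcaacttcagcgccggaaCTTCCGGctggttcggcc
Ndufs4: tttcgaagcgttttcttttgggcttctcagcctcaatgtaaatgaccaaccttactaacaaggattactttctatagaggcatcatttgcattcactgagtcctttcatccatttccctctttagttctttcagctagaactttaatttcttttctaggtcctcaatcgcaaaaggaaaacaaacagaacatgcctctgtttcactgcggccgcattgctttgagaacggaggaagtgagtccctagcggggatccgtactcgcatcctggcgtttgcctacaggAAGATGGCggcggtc
Sdha: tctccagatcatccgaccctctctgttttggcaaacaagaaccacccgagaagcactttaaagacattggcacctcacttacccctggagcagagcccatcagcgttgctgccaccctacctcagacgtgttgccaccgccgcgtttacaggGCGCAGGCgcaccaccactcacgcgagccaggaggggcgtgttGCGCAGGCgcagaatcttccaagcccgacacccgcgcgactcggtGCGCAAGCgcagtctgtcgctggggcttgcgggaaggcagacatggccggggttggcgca
Sdhb: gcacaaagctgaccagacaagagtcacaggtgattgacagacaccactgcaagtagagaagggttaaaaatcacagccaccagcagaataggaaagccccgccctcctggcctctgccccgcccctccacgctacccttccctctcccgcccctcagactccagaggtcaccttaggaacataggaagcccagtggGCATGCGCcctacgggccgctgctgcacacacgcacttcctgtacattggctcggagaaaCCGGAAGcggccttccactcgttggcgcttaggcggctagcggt

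The Cox8a window held 2 ETS matches, the Ndufs4 window 1 YY1 match, the Sdha window 3 NRF1 matches and the Sdhb window 1 NRF1 and 1 ETS match. None of the 4 windows held the ERR motif (CAAGGTCA or TGACCTTG). Among the windows of all 27025 genes in the RefSeq table, 11.2% held the NRF1 motif, 9.93% the ETS motif, 3.19% the YY1 motif and 1.76% the ERR motif. A share over the members is not given, because 70 of the 89 had a window and 19 did not.

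Kept nuclei held few transcripts of the chain. The 89 genes together gave 1554, 1505 and 1410 CPM in fed replicates 1 to 3 and 1779 and 2031 in fasted replicates 1 and 2. In the mt-rich barcodes they gave 34132, 28279 and 22557 in the fed and 31287 and 28521 in the fasted libraries. The mt-rich value was 14.0 to 22.0 times that of the nuclei of the same library. Among the gated classes, inhibitory nuclei held 1374 to 1833, OPC-like nuclei 1294 to 1938, astrocyte-like nuclei 2001 to 4919, oligodendrocyte-like nuclei 1541 to 5134 and microglia-like nuclei 3796 to 7765 CPM.

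**Figure D1:**
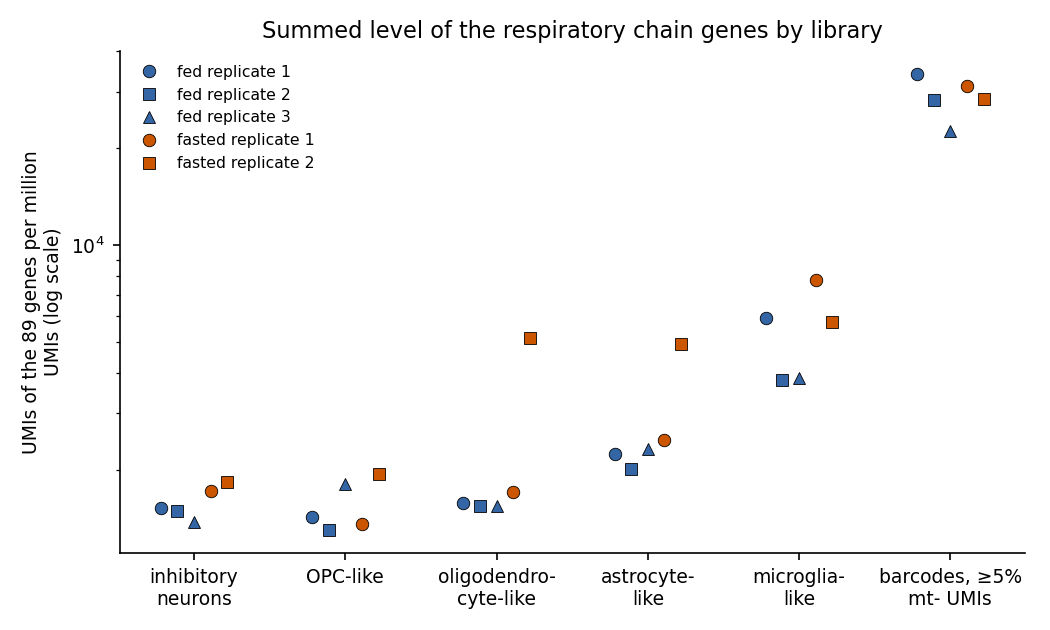
Summed CPM of the 89 nuclear-encoded respiratory chain genes (log axis) in 5 gated classes of nuclei and in mt-rich barcodes, with 1 point per library (blue fed, orange fasted; circle, square and triangle for replicates 1, 2 and 3). The mt-rich barcodes sit between 22557 and 34132, above every class of nuclei, and fasted replicate 2 stands above the other libraries in astrocyte-like (4919) and oligodendrocyte-like (5134) nuclei.

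Long and short genes shared these UMIs differently in nuclei and in mt-rich barcodes. Levels are compared here between libraries and classes for 1 gene at a time and not between genes, whose 3′ counts depend on length. The 17 members of 20 kb or more held 32.5 to 40.5% of the members' UMIs in kept nuclei and 7.47 to 8.54% in mt-rich barcodes. The members under 5 kb held 11.9 to 16.4% in nuclei and 30.9 to 31.6% in mt-rich barcodes. Ndufs4 alone held 5.40 to 7.0% of the members' UMIs in nuclei and 0.335 to 0.461% in mt-rich barcodes. Cox8a moved the other way, from 1.22 to 2.89% in nuclei to 9.98 to 11.2% in mt-rich barcodes.

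Barcodes rich in mt- UMIs were compared with kept nuclei of the same libraries to ask which members were higher there. Nearly all were. Of 85 members tested, 83 were higher in mt-rich barcodes, where 39.4% of 14217 genes were higher, and 1 was lower, where 39.9% were lower (edgeR's quasi-likelihood test, libraries as blocks, Benjamini-Hochberg). The median log2 fold change of the members was 4.78 and that of all genes −0.05. These fold changes come from a fit that rescales each sum for its composition, so they differ from ratios of CPM. For members with a fold change near 0, even the sign can differ. Markers of glia moved with this comparison, though not all in the same direction. All 10 astrocyte markers were detected, at a summed 4167 to 5462 CPM in mt-rich barcodes and 746 to 1242 in kept nuclei. All 10 oligodendrocyte markers were detected, at 3139 to 4073 against 266 to 462, and all 6 microglia markers, at 187 to 252 against 49.1 to 157. The 7 OPC markers, all detected, went the other way, at 530 to 722 against 1482.5 to 1674.5. The 3 markers of inhibitory neurons gave 223 to 351 against 382 to 469. Their part in the members' difference was not tested.

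Complex IV ranked first and complex II last, both in the fit and in the sums. The median log2 fold change was 5.70 in complex IV, 5.04 in complex III, 4.76 in complex I, 4.64 in complex V and 1.71 in complex II. In CPM, complex IV was 29.1 to 58.0 times higher in mt-rich barcodes of each library, complexes III, V and I were 12.3 to 19.4, 13.0 to 20.8 and 10.7 to 15.4 times higher, and complex II was 2.17 to 2.51 times higher. The ranges of complex II and complex IV did not overlap those of the others.

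Cox8a had the largest fold change. It gave 32.3, 18.3 and 22.0 CPM in nuclei of the fed and 51.5 and 57.3 in nuclei of the fasted libraries, and 3683, 2844, 2443, 3499 and 2847 in mt-rich barcodes in the same order. The groups did not overlap and the log2 fold change was 7.03 (SE 0.26). Other small subunits followed. Ndufa1 (complex I) rose by 6.72, Uqcr11 (complex III) by 6.59, Cox6c (complex IV) by 6.45 and Atp5e (the epsilon subunit of the ATP synthase) by 6.20 on the log2 scale.

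The smallest adjusted p-values belonged to 8 members. They were Uqcrfs1, the Rieske iron-sulfur protein of complex III (5.48), the complex I subunits Ndufa11 (4.78), Ndufs8 (4.73), Ndufb11 (6.46), Ndufb7 (4.89), Ndufc1 (5.28) and Ndufa13 (5.75), and Atp5mpl (5.56), a small subunit of complex V. Uqcrfs1 gave 2.47 to 4.51 CPM in nuclei and 86.6 to 127 in mt-rich barcodes (SE 0.13, adjusted p = 8.89e-19, edgeR's quasi-likelihood test with Benjamini-Hochberg adjustment). All 5 libraries showed the same direction for it.

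Complex II moved least. Sdha gave 48.7, 63.9, 43.3, 51.9 and 65.4 CPM in nuclei of fed replicates 1 to 3 and fasted replicates 1 and 2, and 125, 115, 132, 109 and 118 in the mt-rich barcodes. Sdhb gave 49.7, 40.6, 51.7, 48.5 and 40.3 against 108, 91.7, 79.7, 113 and 111. Neither gene overlapped between nuclei and mt-rich barcodes, and the log2 fold changes were 1.65 (SE 0.12) and 1.69 (SE 0.12). Sdhc and Sdhd, the membrane anchors, rose by 1.72 and 3.25 on that scale. Sdha, Sdhb and Sdhc (23.5 kb) are among the members of 20 kb or more, whose median was also 1.72, whereas Sdhd spans 7.55 kb. The part of gene length in the rank of complex II was not tested. Cyc1, cytochrome c1 of complex III, rose by 2.77 (SE 0.12), from 15.1 to 19.3 in nuclei to 58.9 to 100 in mt-rich barcodes.

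Ndufs4 and Ndufs1, an iron-sulfur subunit of complex I, rose by 0.73 and 0.72 on the log2 scale. Ndufs4 gave 101, 105, 93.9, 102 and 110 CPM in nuclei and 114, 126, 104, 118 and 124 in mt-rich barcodes of the same libraries. In CPM it was thus higher in the mt-rich barcodes of each library by a step smaller than that of the fit, although the ranges overlapped. Cox7b2, a subunit isoform known from testis, was the single member not called (0.23, SE 0.22, adjusted p = 0.356, edgeR's quasi-likelihood test with Benjamini-Hochberg adjustment). It gave 2.18 to 6.17 CPM in nuclei and 1.86 to 5.20 in mt-rich barcodes. With all libraries pooled it gave 4.41 and 2.995 CPM, so that the pooled CPM went against the sign of the fit.

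The symbol Atp5o, the stalk subunit OSCP of the ATP synthase, belongs to 2 entries in the tables. ENSMUSG00000022956 lies at chr16:91720317-91728575, and ENSMUSG00000116933, at chr16:91481286-91723870 on the same strand, spans 243 kb and overlaps it, so that reads in the overlap are uncertain. The longer entry was the member lower in mt-rich barcodes (−0.81, SE 0.19, adjusted p = 0.000644, edgeR's quasi-likelihood test with Benjamini-Hochberg adjustment). ENSMUSG00000116933 gave 10.6, 12.3, 7.69, 9.54 and 17.5 CPM in nuclei against 2.16, 5.39, 6.93, 4.73 and 6.68.

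The size of the change went with the length of the gene. Over the 85 members, Spearman's rank correlation between gene length and log2 fold change was −0.587, and over the 14107 other genes with a length it was −0.493. These are descriptions across genes that share the same 5 libraries. Members under 5 kb (21) had a median of 5.39, against 2.36 for other genes of that length, and members of 5 to 10 kb (29) 5.28 against 1.11. Members of 10 to 20 kb (18) had a median of 4.27 against 0.51, and those of 20 kb or more (17) 1.72 against −0.44. The members' median was above that of other genes in each length class.

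**Figure D2:**
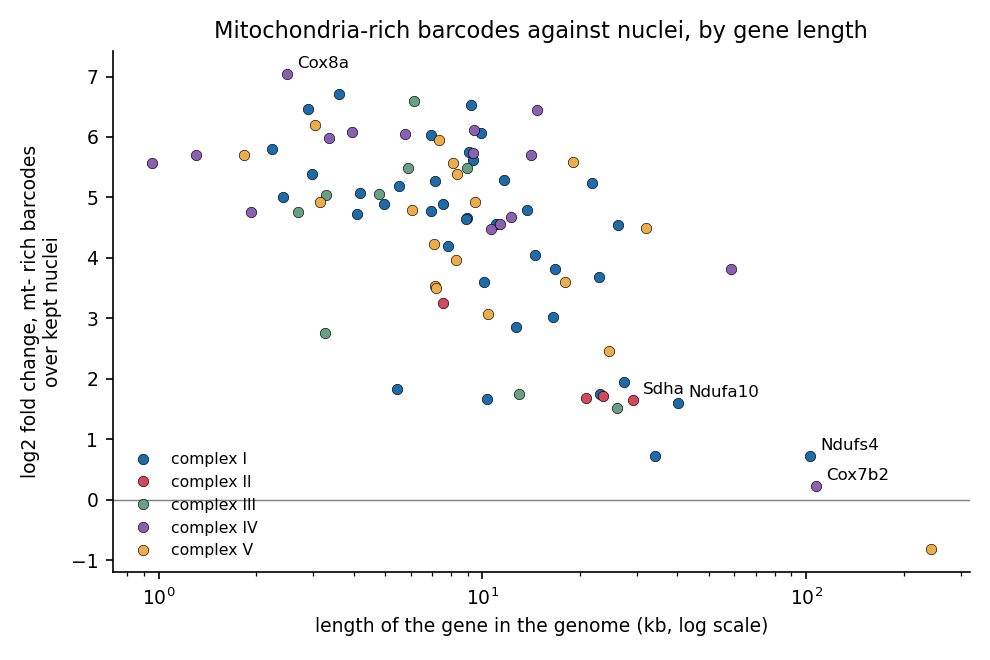
Log2 fold change of each tested member in mt-rich barcodes over kept nuclei (y axis) against gene length in kb (x axis, log scale), coloured by complex. Short genes such as Cox8a (2.48 kb, 7.03) lie at the top, whereas Ndufs4 (103 kb, 0.73) and Cox7b2 (107 kb, 0.23) lie near 0.

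Other gene lists gave the members a scale. All 13 mt-encoded subunits were higher in mt-rich barcodes (median log2 fold change 7.14), a gene set that defined these barcodes. The cytosolic ribosome had 82 of 83 genes higher (6.21), the mitochondrial ribosome 69 of 77 (2.17), glycolysis 13 of 17 (2.76) and the citrate cycle 11 of 13 (1.29). Assembly factors of the chain had 28 higher and 10 lower of 49 (0.56), electron carriers 11 higher and 4 lower of 17, and the transcriptional regulators of mitochondrial genes 3 higher and 9 lower of 14 (−0.58). The members' median of 4.78 lay between those of the cytosolic ribosome and of glycolysis.

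Several subunits have a second gene known from other tissues, and most of these alternative isoforms had few UMIs in the CeA, Cox7b2 being the exception. In kept nuclei Cox4i1, the common form of the subunit, had 2213 UMIs and Cox4i2, known from lung, had 10. Cox6a1 had 1060 and the muscle form Cox6a2 had 31, Cox6b1 had 1522 and the testis form Cox6b2 had 17, and Cox8a had 3421 against 0 for Cox8b and 1 for Cox8c. Cox7a2 had 1363, Cox7a2l 2006 and the muscle form Cox7a1 19. Cox7b had 1847 and Cox7b2 398, of which 344 lay in inhibitory nuclei. Ndufa4 had 1353 and Ndufa4l2, known to be induced by low oxygen, had 17. These are counts of 3′ molecules of genes of unequal length.

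In mt-rich barcodes 4 of the rare isoforms were higher, as the common ones were. Cox4i2, Cox6a2, Cox6b2 and Cox7a1 had 62, 403, 216 and 135 UMIs there, and their log2 fold changes over nuclei were 4.55, 5.56, 5.70 and 4.76. The common forms rose by 6.12 (Cox4i1), 5.99 (Cox6a1), 5.73 (Cox6b1) and 5.70 (Cox7a2), and Cox7a2l and Cox7b by 3.82 and 4.48. Cox7b2, as given above, was not called, Ndufa4l2 had 16 UMIs in mt-rich barcodes and was not tested, and Cox8b had 8. The 3 genes of the subunit c of the ATP synthase, Atp5g1, Atp5g2 and Atp5g3, rose by 4.22, 4.93 and 4.92.

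In inhibitory neurons, the main cell class of the CeA, fasting was compared with feeding in the sums over each library. The 89 genes gave 1513, 1483 and 1374 CPM in fed replicates 1 to 3 and 1716 and 1833 in fasted replicates 1 and 2. Both fasted libraries lay above all fed ones, and the fasted mean was 1.22 times the fed mean (1775 ± 82.4, SD, n = 2, against 1457 ± 73.2, n = 3). Within the assumed preparation batches the ratio was 1.13 for replicate 1 and 1.24 for replicate 2. With 3 libraries against 2, the smallest p that a two-sided exact rank test of a single sum allows is 0.20, so none is given.

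Over all kept inhibitory nuclei, complex IV differed most and complex II least. Complex IV gave 205, 176 and 161 CPM in the fed and 262 and 277 in the fasted libraries, 1.49 times more in fasted than in fed. Complex V (378, 376 and 331 against 419 and 473), complex III (158, 159 and 142 against 171 and 197) and complex I (650, 639 and 618 against 735 and 753) were 1.23, 1.20 and 1.17 times higher, without overlap. Complex II gave 122, 132 and 121 against 130 and 133, a ratio of 1.05 with overlap between the groups. The mitochondrial ribosome, measured beside it, gave a ratio of 1.00 with overlap (1060 to 1111 in all libraries). The order differed among nuclei below 0.1% mt- UMIs, of which fasted replicate 1 had 45. Complex II did not rank last there, at 121, 133 and 119 CPM in the fed and 159 and 128 in the fasted libraries. Complex III (152, 162 and 140 against 148 and 176) and complex V (361, 371 and 323 against 343 and 436) overlapped there too. Complexes I and IV still did not.

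Transcripts typical of the mt-rich barcodes moved in the same direction. In inhibitory nuclei the mt-encoded subunits gave 1598, 1459 and 1001 CPM in the fed and 3088 and 2226 in the fasted libraries, and cytosolic ribosomal protein genes gave 1824, 1129 and 1298 against 2704 and 2200. Markers of other cells moved too: the 10 oligodendrocyte markers, all detected, gave 175, 135 and 180 CPM in the fed and 237 and 218 in the fasted libraries, and the 6 microglia markers 16.5, 20.2 and 14.1 against 20.4 and 24.5, both without overlap. Astrocyte markers overlapped (329 to 531 against 440 to 443). The part of these transcripts in the members' difference was not tested. When inhibitory nuclei were split by mt- share, both fasted libraries lay above all fed ones for the summed members in each of 4 bins. This split was added after the data were seen. Below 0.1% mt- UMIs the members gave 1430, 1456 and 1342 CPM in the fed libraries (342, 451 and 792 nuclei) and 1564 and 1674 in the fasted ones (45 and 332 nuclei). Between 0.4 and 0.8% they gave 1879, 1505 and 1602 against 1892 and 2123, so that there fasted replicate 1 and fed replicate 1 nearly coincided.

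**Figure D3:**
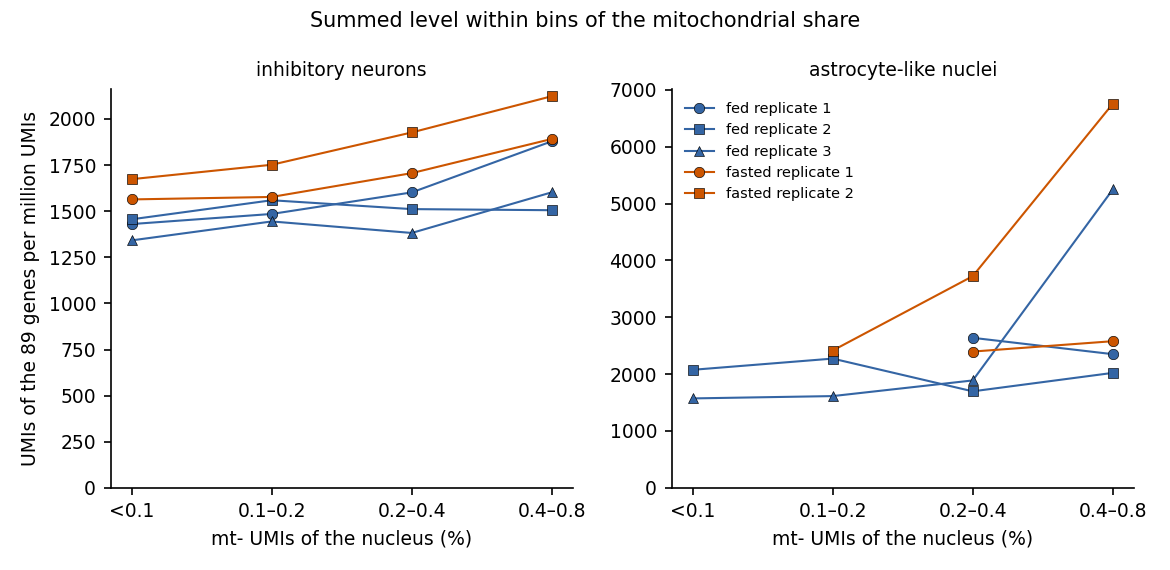
Summed CPM of the 89 genes within 4 bins of the nucleus's mt- share (below 0.1, 0.1 to 0.2, 0.2 to 0.4 and 0.4 to 0.8%), in inhibitory and astrocyte-like nuclei, with 1 point per library of at least 10 nuclei in the bin (blue fed, orange fasted). In inhibitory nuclei both fasted libraries lie above the fed ones in each bin, whereas in astrocyte-like nuclei the groups overlap between 0.2 and 0.4% and between 0.4 and 0.8%, where fed replicate 3 reaches 5248, and the lower bins lack fasted replicate 1.

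Gene by gene, no member passed the test. Of 81 members tested in inhibitory nuclei, 0 were called in either direction, where 0.00741% of genes (1 of 13503) were called (edgeR's quasi-likelihood test, Benjamini-Hochberg over all genes). At an unadjusted p under 0.05 there were 26 members, against 695 of all genes. The likelihood ratio test of edgeR called 7 members higher (0.963% of genes). DESeq2 called 3, and its share of all genes is not given. The fit with the assumed preparation batch as a block called 12 (1.96% of genes). In that fit fed replicate 3, alone in its batch, added nothing to the fasting estimate, which rests on replicates 1 and 2. The unblocked fold changes were positive for 75 members and negative for 6. Their median was 0.30 on the log2 scale, against −0.01 for all genes. Both fasted libraries lay above all fed ones for 38 members and below for 0, where 11.2% of all genes lay above and 6.51% below.

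The 3 members with the smallest p were Cox8a, Ndufa4 and Uqcr11. Cox8a gave 27.6, 17.5 and 19.4 CPM in the fed and 48.4 and 41.8 in the fasted libraries. Its log2 fold change was 1.07 (SE 0.20), the highest of all members. The adjusted p was 0.300 by edgeR's quasi-likelihood test with Benjamini-Hochberg adjustment. With the batch as a block the same edgeR test gave an adjusted p = 2.43e-08, in a fit where only replicates 1 and 2 inform the fasting estimate. The spread in that fit comes from these assumed pairs alone and is moderated by that of other genes. The fasted libraries stood clear of the fed ones for this gene.

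Ndufa4 gave 10.0, 9.75 and 8.29 against 15.5 and 17.6 (0.82, SE 0.17), and Uqcr11 gave 8.56, 5.80 and 6.31 against 14.6 and 13.3 (1.02, SE 0.21). Neither overlapped between the groups. The other members called with the batch as a block were Cox4i1, Cox5b, Cox6c and Cox7c of complex IV, Ndufa2 and Ndufa3 of complex I, Uqcrh of complex III and Atp5e and Atp5k of complex V, with log2 fold changes of 0.84, 0.64, 0.75, 0.61, 0.85, 0.64, 0.58, 0.82 and 0.69 in the unblocked fit. Cox4i1, the largest nuclear subunit of complex IV, gave 19.8, 15.0 and 13.3 against 29.4 and 28.0. All 12 are subunits of complexes I, III, IV and V, as are all but 4 of the 81 members tested.

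The subunits of complex II overlapped between fed and fasted libraries. Sdha gave 47.0, 63.5 and 42.5 CPM in the fed and 54.7 and 64.6 in the fasted libraries (log2 fold change 0.21, SE 0.18). Sdhb gave 50.8, 40.4 and 52.8 against 50.4 and 38.9 (−0.13, SE 0.18), and Sdhc gave 21.3, 23.4 and 22.6 against 20.8 and 24.1 (−0.02, SE 0.14). None of these differences was larger than the spread between libraries. Sdhd gave 2.81, 4.68 and 3.32 against 3.95 and 5.06 (0.30, SE 0.28). Cyc1 gave 15.4, 17.4 and 15.5 against 17.6 and 17.8 (0.11, SE 0.15). The lowest fold change belonged to Cox7b2, with 4.55, 5.80 and 4.17 against 2.67 and 4.65 (−0.36, SE 0.29).

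By complex, the median log2 fold change in inhibitory nuclei was 0.52 in complex IV, 0.30 in V, 0.28 in I, 0.22 in III and 0.09 in II. It was positive for all 18 members of complex V, all 9 of complex III, 11 of 12 of complex IV, 35 of 38 of complex I and 2 of 4 of complex II. No gene was called in the other lists of the pathway, and their medians were 0.95 for the 13 mt-encoded subunits, 0.82 for 83 cytosolic ribosomal protein genes, 0.17 for 17 glycolysis genes and 0.13 for 48 assembly factors. The citrate cycle (0.08, 13 genes), the electron carriers (0.04, 17), the mitochondrial ribosome (0.02, 77) and the regulators (−0.03, 14) had medians near that of all genes.

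**Figure D4:**
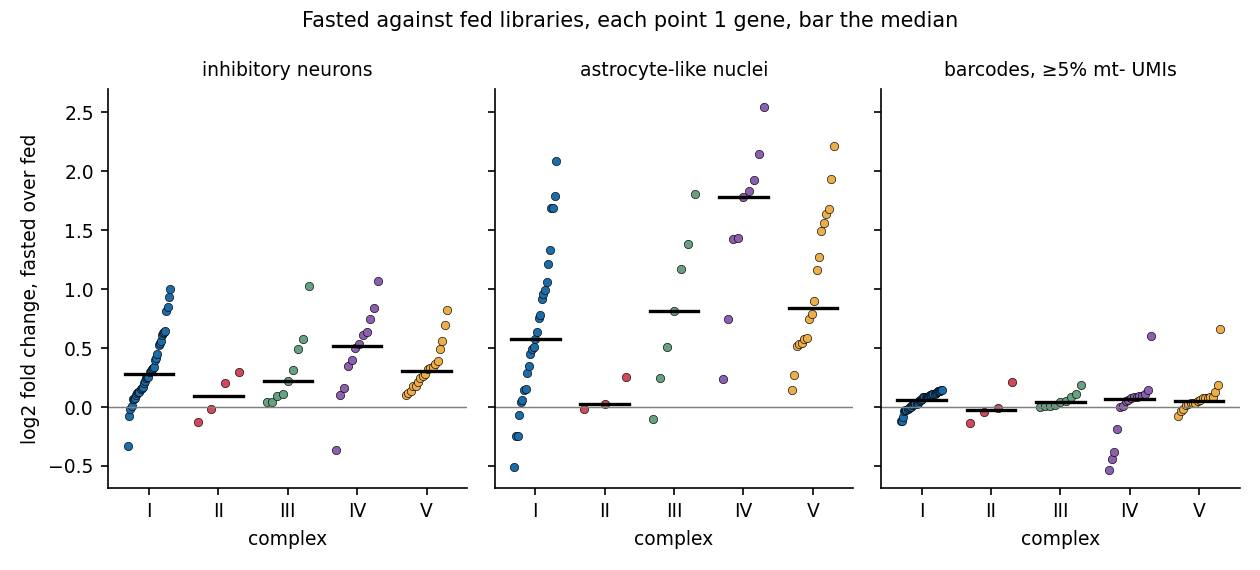
Log2 fold change of each tested member in fasted over fed libraries, by complex (bar, median), in inhibitory nuclei, astrocyte-like nuclei and mt-rich barcodes. Complex IV has the highest median in inhibitory (0.52) and astrocyte-like (1.79) nuclei, and complex II lies near 0 in both (0.09 and 0.02).

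The direction was shared by the neuron classes. Gates on markers placed 2926 of the 4951 inhibitory nuclei in 13 classes, with 1929 nuclei near a bound of the gate, so that class borders are soft. In all 13 classes both fasted libraries lay above all fed ones for the summed members, and the fasted mean was 1.14 (Prkcd) to 1.35 (Nkx2-1) times the fed mean. The class marked by Nts and Tac2 had a ratio of 1.19, the Calcrl class 1.19, the Sst class 1.22 and the Il1rapl2 class 1.20. Of 538 tests of a member in a class, 0 were called by edgeR's quasi-likelihood test, where 0.0762% of the tests of all genes in these classes were called higher and 0.0921% in either direction. At higher level in fasted libraries, the likelihood ratio test called 3 members (0.298% of all tests) and the batch as a block 1 (0.372%). In the quasi-likelihood fit the members' median log2 fold change ran from 0.07 (Vdr class) to 0.48 (Foxp2 class). The median of these class medians was 0.23.

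The classes also differed little in level. The mean over libraries ran from 1477 CPM in the Pde1c class to 1713 in the Nkx2-1 class, and the order was not the same in each library: the Nkx2-1 class was lowest in fed replicate 1 (1438) and highest in fasted replicates 1 (2042) and 2 (2008). Each class was tested against the other inhibitory nuclei, and 5 of 1054 tests of members were called. Of all genes, 794 of 12308 (Tac1 class, the fewest) to 2872 of 12216 (Nts/Tac2 class, the most) were called per class. In the Nkx2-1 class, 3 of 82 members were higher, where 8.32% of genes were higher, so that their share was below that of all genes.

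Sdhc gave 26.0, 42.8, 28.0, 28.9 and 40.1 CPM in the Nkx2-1 class against 21.2, 22.8, 22.5, 20.6 and 23.5 in the other inhibitory nuclei (fed replicates 1 to 3, then fasted; log2 fold change 0.64, adjusted p = 0.0333 by edgeR's quasi-likelihood test with Benjamini-Hochberg adjustment). Cox7b gave 20.8, 33.0, 28.0, 23.1 and 40.1 against 18.0, 19.4, 13.3, 18.2 and 25.0 (0.68, adjusted p = 0.0351, same edgeR test). Both were higher in each of the 5 libraries. Sdhc was not called without fed replicate 2 (adjusted p = 0.184), fasted replicate 1 (0.0512) or fasted replicate 2 (0.238), and Cox7b not without fed replicate 2, fed replicate 3 or fasted replicate 2 (edgeR). The call of Cox6a2 (3.40, SE 1.03) rested on 7 UMIs, 6 of them in fasted replicate 2.

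In the Calcrl class, 2 of 81 members were lower, where 12.1% of genes were lower, so that their share too was below that of all genes. Uqcr11 gave 5.35, 3.44, 4.41, 3.59 and 5.62 CPM against 8.82, 5.94, 6.43, 15.5 and 13.8 in the other inhibitory nuclei (−1.03, adjusted p = 0.0114, edgeR's quasi-likelihood test with Benjamini-Hochberg adjustment). Cox7a2 gave 3.57, 6.88, 3.53, 14.4 and 7.73 against 13.5, 10.6, 10.3, 14.9 and 16.8 (−0.89, adjusted p = 0.0133, same edgeR test). Both were lower in each of the 5 libraries. Uqcr11 was not called without fasted replicate 1 (adjusted p = 0.0550) or 2 (0.103), and Cox7a2 not without fed replicate 3 (0.0525) or fasted replicate 2 (0.0873), by edgeR.

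Transcripts of the chain made up a larger share of UMIs in astrocyte-like than in inhibitory nuclei. Astrocyte-like nuclei held fewer UMIs each, with medians of 2370 to 4494 per library against 7447 to 18549. The share thus does not give molecules per nucleus. With libraries as blocks, 51 of 81 members were higher, where 22.2% of genes were higher, and 0 were lower (edgeR's quasi-likelihood test, Benjamini-Hochberg), with a median log2 fold change of 0.86 against −0.07 for all genes. The members higher were 10 of 12 in complex IV, 15 of 18 in complex V, 5 of 9 in complex III, 19 of 38 in complex I and 2 of 4 in complex II. In the same comparison all 13 mt-encoded subunits and 70 of 83 cytosolic ribosomal protein genes were higher, whereas the mitochondrial ribosome had 7 higher and 6 lower of 76 and the citrate cycle 6 higher of 13.

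The count changed with the nuclei that entered. Below 0.3% mt- UMIs, which kept 208 of the 480 astrocyte-like nuclei (15 of 86 in fasted replicate 1 and 43 of 155 in fasted replicate 2), 5 of 80 members were called higher (median 0.28), where 15.6% of genes were higher, so that their share was below the background. They were Ndufb11, Ndufs5, Ndufs7, Uqcrfs1 and ENSMUSG00000116933. Without the nuclei in which at least 2% of UMIs came from cytosolic ribosomal protein genes 36 members were called (median 0.61), where 22.1% of genes were, and without fasted replicate 2 there were 21 (median 0.57), where 18.6% of genes were. The first 2 of these limits were added after the data were seen. The 5 named members were called under all of the mt- and ribosome limits.

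ENSMUSG00000116933 gave 64.0, 34.8, 22.4, 61.7 and 62.6 CPM in astrocyte-like nuclei against 10.0, 12.0, 7.38, 8.15 and 16.2 in inhibitory nuclei (1.98, SE 0.25, adjusted p = 5.91e-07, edgeR's quasi-likelihood test with Benjamini-Hochberg adjustment). Ndufs5, a complex I subunit, gave 14.8, 46.4, 29.1, 36.3 and 56.3 against 11.1, 13.8, 10.6, 13.5 and 15.9 (1.43, SE 0.24). Both were higher in each library. Ndufb11 gave 24.6, 2.32, 22.4, 7.26 and 36.3 against 3.61, 2.63, 1.66, 6.49 and 4.08 (2.36, SE 0.45). It was lower in astrocyte-like nuclei of fed replicate 2, where it rested on 1 UMI.

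The members with the next smallest p-values were Cox8a (1.51, SE 0.25), Cox6c (1.31), Atp5g2 (1.15), Cox7a2 (1.34) and Cox4i1 (1.15). Cox8a gave 39.4, 37.1, 71.7, 76.2 and 268 CPM in astrocyte-like nuclei and was above the inhibitory nuclei in each library. In complex II, Sdha (0.54, SE 0.16) and Sdhc (0.73, SE 0.22) were higher, and Sdhb (0.32, SE 0.17) and Sdhd (0.67, SE 0.46) did not pass. Cyc1 was higher by 1.01 (SE 0.25). Ndufs4, with 143, 92.8, 146, 97.9 and 135 in astrocyte-like nuclei, did not differ beyond its error (0.12, SE 0.15), and Cox7b2 had the lowest value (−0.38, SE 0.56).

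Oligodendrocyte-like nuclei showed less, and OPC-like nuclei little. Against inhibitory nuclei, 13 of 81 members were higher in oligodendrocyte-like nuclei, where 13.4% of genes were higher (edgeR's quasi-likelihood test, Benjamini-Hochberg, median 0.61). Their share was near that of all genes. Only 1 member was lower, where 20.5% of genes were lower. Without fasted replicate 2 there were 0 higher (9.69% of genes), and without ribosome-rich nuclei 1 (13.2% of genes). The member lower was Ndufs4, with 56.8, 82.9, 57.9, 0 and 72.6 CPM against 102, 107, 94.0, 106 and 109 in inhibitory nuclei (−0.96, SE 0.29, adjusted p = 0.00467, same edgeR test), below in each of the 5 libraries. The members with the smallest p-values among those higher were Cox8a (1.51), Ndufb11 (2.14), Cox6c (1.32), Atp5e (1.44), Ndufa4 (1.42), Cox6a1 (1.49) and Cox4i1 (1.16), and the lowest fold change was that of Ndufb6 (−1.14, SE 1.03).

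OPC-like nuclei had 3 of 81 members higher, where 11.5% of genes were higher, and 3 lower, where 18% were lower (edgeR's quasi-likelihood test, Benjamini-Hochberg). Both shares lay below those of all genes, and fasted replicate 1 had 8 OPC-like nuclei. The members higher were Ndufb4 (1.26, SE 0.46), Ndufa2 (1.39, SE 0.51) and Cox8a (0.83, SE 0.33). Those lower were Ndufa10 (−1.12, SE 0.42), Cox7a2l (−1.47, SE 0.59) and Atp5b, the catalytic beta subunit of the ATP synthase (−1.17, SE 0.47). The UMIs of Cox8a in OPC-like nuclei were 3, 0, 29, 1 and 10, so that fed replicate 3 held most of them, and without it the fold change was −0.47. The highest and the lowest fold changes, of Ndufa1 (1.53, SE 0.76) and Cox7b2 (0 UMIs in OPC-like nuclei), did not pass. Microglia-like nuclei were not tested, and fed replicate 3 had 7 of them. The summed members gave 5918, 3796 and 3852 CPM there in the fed and 7765 and 5736 in the fasted libraries, above the inhibitory nuclei of each library.

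In astrocyte-like nuclei the fasted libraries differed more from each other than fasted replicate 1 did from the fed ones. The summed members gave 2235, 2001 and 2311 CPM in the fed and 2467 and 4919 in the fasted libraries. Of the 155 astrocyte-like nuclei of fasted replicate 2, 6 held 16.2 to 33.0% cytosolic ribosomal protein UMIs, and these 6 held 1630 of its 3932 member UMIs (41.5%). Without them the library gave 2978, near its median nucleus (3000). The other 4 libraries had no such nucleus. In fed replicate 3, a single barcode held 301 of 1032 member UMIs. Oligodendrocyte markers (7 to 10 of 10 detected) gave 158, 155 and 128 CPM in the astrocyte-like nuclei of the fed and 294 and 457 in those of the fasted libraries, without overlap, and the vascular markers were at 0 in 4 of the 5 libraries. The part of the oligodendrocyte markers' transcripts in the difference was not tested.

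Medians over nuclei, which depend less on a few nuclei, kept part of the difference. In astrocyte-like nuclei they were 2398, 2054 and 1690 in the fed and 2560 and 3000 in the fasted libraries, so that both fasted libraries lay above all fed ones. In inhibitory nuclei they were 1473, 1453 and 1360 against 1684 and 1816, close to the sums. In oligodendrocyte-like nuclei they were 1476, 1410 and 1545 against 1773 and 2690, while the sums were 1572, 1541 and 1542 against 1704 and 5134. There, 2 of 55 nuclei of fasted replicate 2 held 1087 of 1768 member UMIs (61.5%), and its value without them was 2367. Astrocyte markers (3 to 9 of 10 detected) gave 530, 517 and 391 CPM in the oligodendrocyte-like nuclei of the fed and 722 and 1182 in those of the fasted libraries, and their part was not tested.

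**Figure D5:**
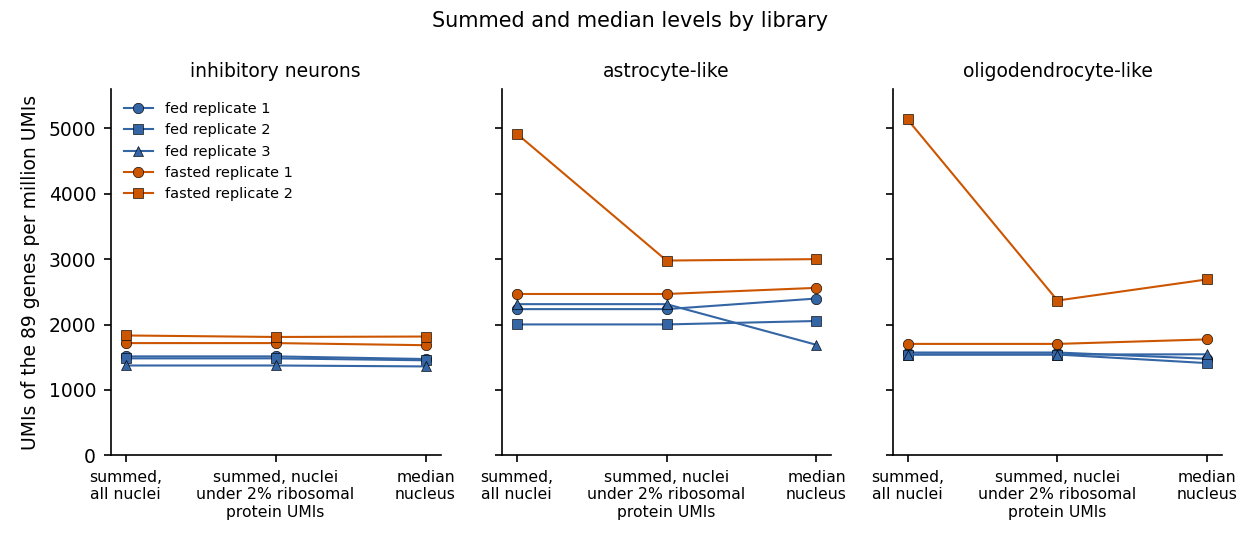
CPM of the members by library (blue fed, orange fasted) in 3 classes, as the sum over all nuclei, the sum over nuclei with less than 2% cytosolic ribosomal protein UMIs, and the median nucleus. The astrocyte-like value of fasted replicate 2 goes from 4919 to 2978 and 3000, whereas the inhibitory values barely move.

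The fasting test in astrocyte-like nuclei called 0 of 64 members, where 0.553% of genes (39 of 7054) were called (edgeR's quasi-likelihood test, Benjamini-Hochberg). At an unadjusted p under 0.05 there were 25 members, against 414 of all genes. The likelihood ratio test called 7 members higher (1.32% of genes), DESeq2 0 and the fit with the batch as a block 0. The fold changes were positive for 58 members (median 0.77 against −0.01 for all genes), and both fasted libraries lay above all fed ones for 25 members and below for 0, where 10.5% of all genes lay above and 9.38% below. By complex the medians were 1.79 in IV, 0.84 in V, 0.82 in III, 0.58 in I and 0.02 in II. In the same fit 25 of 70 cytosolic ribosomal protein genes (median 2.01) and 1 of 12 mt-encoded subunits (0.71) were higher.

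The 3 members with the smallest p were Atp5j (coupling factor 6), Cox6b1 and Atp5k (subunit e). Atp5j gave 9.85, 6.96 and 17.9 CPM in the fed and 43.5 and 65.1 in the fasted libraries (2.22, SE 0.47, adjusted p = 0.0562, edgeR's quasi-likelihood test with Benjamini-Hochberg adjustment). Cox6b1 gave 0, 9.28 and 20.2 against 32.6 and 95.1 (2.54, SE 0.59, adjusted p = 0.0896, same edgeR test). Atp5k gave 14.8, 9.28 and 24.6 against 43.5 and 77.6 (1.93, SE 0.45, adjusted p = 0.0902, same edgeR test). For all 3 the fasted libraries stood above the fed ones. Atp5j, Cox6b1 and Atp5k had 77, 98 and 92 UMIs in the astrocyte-like nuclei of all libraries together. The values of fasted replicate 2 include its 6 ribosome-rich nuclei.

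Ndufv1, the flavin-binding subunit of complex I, had the lowest fold change, with 29.5, 23.2 and 40.3 against 25.4 and 20.0 (−0.51, SE 0.47). Sdha gave 128, 90.4 and 58.2 against 72.6 and 97.6 (−0.02, SE 0.35). Both overlapped between the groups. Without fasted replicate 2 the median over 50 members was 0.33, and without fasted replicate 1 it was 1.28 over 76 members, each with 1 fasted library left. Without ribosome-rich nuclei it was 0.47 over 55 members, and below 0.3% mt- UMIs it was 0.14 over 18, with 0 called in both.

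In oligodendrocyte-like nuclei 5 members had enough counts to be tested for fasting, and 0 were called, where 0% of genes (0 of 3410) were called (edgeR's quasi-likelihood test, Benjamini-Hochberg). At an unadjusted p under 0.05 there were 2 members and 173 genes, and the likelihood ratio test called 1 member, DESeq2 0 and the fit with the batch as a block 4 of 28 (2.33% of genes). Cox8a had 3, 6 and 4 UMIs in the fed and 8 and 108 in the fasted libraries, or 56.8, 29.3 and 28.9 against 160 and 314 CPM (2.88, SE 0.49, adjusted p = 0.159, same edgeR test). Ndufa4 had a fold change of 2.27 (SE 0.98), Sdha 0.13 (SE 0.50), Ndufs4 −0.33 (SE 0.71) and Ndufs1 −0.78 (SE 0.65).

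Whether the fasting difference itself was larger in glia than in inhibitory neurons was tested as an interaction. For astrocyte-like nuclei 0 of 81 members were called, where 0.0942% of genes were called (edgeR's quasi-likelihood test, Benjamini-Hochberg), 14 members and 564 genes had an unadjusted p under 0.05, and the median difference was 0.52 on the log2 scale. It was 0.04 without ribosome-rich nuclei, 0.08 below 0.3% mt- UMIs and −0.24 without fasted replicate 2. The smallest p-values belonged to Cox6b1 (2.07, SE 0.60, adjusted p = 0.319, edgeR), Atp5j (1.83, adjusted p = 0.391, edgeR) and Cox6a1 (1.92, SE 0.64), the highest difference to Ndufs6 (2.56, SE 0.96) and the lowest to Cox7b2 (−1.36, SE 1.32).

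For oligodendrocyte-like nuclei 0 of 81 members were called, where 0% of genes (0 of 12372) were called, with 20 members and 510 genes at an unadjusted p under 0.05 and 0 members by the likelihood ratio test. The median difference was 1.10, and it was 0.20 without ribosome-rich nuclei and −0.65 without fasted replicate 2. The smallest p-values belonged to Ndufb9 (4.29), Cox7c (2.42) and Atp5g1 (3.95). In oligodendrocyte-like nuclei Ndufb9 had 0, 1 and 0 UMIs in the fed and 0 and 42 in the fasted libraries. The extreme values, of Ndufs6 (10.28, SE 3.68) and Cox7b2 (−8.84, SE 5.01), rest on groups with almost no UMIs and depend on the prior count of the fit.

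In mt-rich barcodes the members did not separate the feeding states. Their sums overlapped between the groups for each complex, at ratios of fasted to fed means of 1.04 to 1.06. Complex IV gave 12362, 9933 and 8004 CPM in the fed and 11462 and 9977 in the fasted libraries, and complex I gave 10274, 8672 and 6748 against 9440 and 8779. In both, fed replicate 3, which had 123 mt-rich barcodes, was lowest. Of 85 members 0 were called, where 0.0721% of genes (9 of 12475) were called (edgeR's quasi-likelihood test, Benjamini-Hochberg), and 0 members had an unadjusted p under 0.05. The median log2 fold change was 0.06, and with the batch as a block it was −0.12. Oligodendrocyte markers (3139 to 3490 CPM in fed and 3908 to 4073 in fasted libraries) and microglia markers (187 to 196 against 238 to 252), each list detected in full, did not overlap between the groups in these barcodes, and their part was not tested.

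The fasted libraries lay above all fed ones for 4 members and below for 1 in mt-rich barcodes, where 8.07% of all genes lay above and 5.65% below. The highest fold change belonged to ENSMUSG00000116933, with 2.16, 5.39 and 6.93 CPM in the fed and 4.73 and 6.68 in the fasted libraries (0.66, SE 0.42). The lowest belonged to Cox7a1, with 5.59, 5.39 and 1.73 against 3.29 and 4.02 (−0.53, SE 0.38). Cox6b2 gave 7.03, 8.09 and 10.4 against 5.74 and 6.53 (−0.38). Cox8a had a fold change of 0.08 (SE 0.39) there, beside 1.07 (SE 0.20) in inhibitory nuclei and 1.84 (SE 0.44) in astrocyte-like nuclei of the same libraries.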

How the data were processed

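Single-nucleus RNA was measured in 5 libraries of CeA tissue (3 fed, 2 fasted), made with the 10x Chromium 3′ v3.1 chemistry. The authors deposited raw UMI counts per gene and barcode, whole numbers for the barcodes that Cell Ranger called as cells, with none of the study's filters applied. The file header names Cell Ranger 5.0.0, whereas the labels name 2.1.1 and mm10. The methods give GRCm39 with Ensembl release annotation, Cre and mCherry added and intronic reads counted, so reads of introns add to long genes.

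Nuclei were kept at 500 to 8000 genes and under 0.8% mt- UMIs. Barcodes with 5% or more formed the mt-rich sums. Astrocyte-, oligodendrocyte- and OPC-like nuclei had at least 4 of their markers and 50 marker UMIs per 10000, microglia-like nuclei at least 3 and 30. A nucleus passing several gates went to the class that led by a factor of 2 or stayed out (25 nuclei). No doublet caller was run. The other nuclei with 2 Gad1 or Gad2 UMIs were inhibitory. Library pairs shared 0 to 22 barcodes, and 0 or 1 among kept nuclei.

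Counts were summed per class and library and tested with edgeR 4.0.16 (R 4.3.3; TMM, filterByExpr, quasi-likelihood test, Benjamini-Hochberg over all genes tested, threshold 0.05). A class entered a fasting test, or a test among neuron classes, with at least 10 nuclei in each library. The comparison of OPC-like with inhibitory nuclei was made without this limit, and fasted replicate 1 had 8 OPC-like nuclei. Comparisons of classes and of mt-rich barcodes had the library as a block. Each SE is the log2 fold change divided by the root of the F statistic. The p-values of the fasting tests without a batch term measure the spread between libraries, together with count noise. With the assumed batch as a block, the spread comes from the pairs of replicates 1 and 2 alone and is moderated by that of other genes. Where the library is a block, the p-values measure the spread of the difference within libraries instead. Sums, gates and figures used Python 3.11.15 with numpy 2.4.6, pandas 2.3.3, scipy 1.17.1 and matplotlib 3.10.9. The fits were tested on simulated data.

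The genes named are the subunits of complex II, Cyc1, paralogs of 1 subunit, up to 8 called members per comparison by smallest adjusted p (or the 3 with the smallest p), and the lowest and highest fold changes. Other members were named after their values were seen. The members and lists were chosen with earlier results of these data known. The replicate numbers were taken to mark shared preparation batches. Deviations from the group means were correlated between fed and fasted libraries of the same number. The values for replicates 1 and 2 were 0.388 and 0.596 over 13503 genes in inhibitory nuclei. They were 0.0450 and −0.0158 over 7054 genes in astrocyte-like nuclei. These do not establish the batches, because the deviations of 2 fasted libraries mirror each other and libraries of unlike number were not compared. Median UMIs per kept nucleus were 8326 (fed) and 6608 (fasted) in replicate 1 and 14886 and 16367 in replicate 2. The part of this depth was not tested. The tests were repeated with edgeR's likelihood ratio test, DESeq2 1.42.0, RLE scaling, no filter, a batch term, 1 library left out at a time, equal numbers of nuclei thinned to 4000 UMIs and stricter mt- limits. The limits of 0.3% mt- UMIs and 2% ribosomal protein UMIs were added after the data were seen.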

Additional observations from a re-analysis of the deposited data

How the results depend on the processing

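The number of members called higher in fasted libraries depended on the tool. Where no share of all genes is given here or above, a count does not show whether the members stood out from other genes. In inhibitory nuclei it was 0, and it was 3 with DESeq2, 7 with the likelihood ratio test and 5 with no filter on low counts. With the replicate block, which pairs the assumed preparation batches, it was 12, in a fit where fed replicate 3 adds nothing to the fasting estimate. In astrocyte-like nuclei it was 0, and it was 7 with the likelihood ratio test, 13 with no filter and 2 after thinning to equal nuclei and depth. In oligodendrocyte-like nuclei it was 0, and it was 1, 6 and 4 with the likelihood ratio test, no filter and the replicate block. Over the neuron classes it was 3, 1 and 1 in the same order, and the interaction of astrocyte-like and inhibitory nuclei had 1 call with no filter. Leaving out each library in turn gave the members median log2 fold changes of 0.33 to 1.28 in astrocyte-like nuclei and −2.11 to 2.82 in oligodendrocyte-like nuclei. In that interaction the medians were −0.24 to 0.72. Between classes, members higher in astrocyte-like nuclei numbered 5 below 0.3% mt- UMIs and 21 to 53 leaving out each library. In oligodendrocyte-like nuclei they numbered 1 below 2% ribosomal protein UMIs and 0 to 21 leaving out each library. In OPC-like nuclei the members higher were 0 below 2% ribosomal protein UMIs and 1 to 3 leaving out each library, and the members lower were 0 with RLE scaling, 1 with no filter and 0 to 3 leaving out each library. Neuron classes against the others had 5, 8 and 1 members higher with RLE scaling, the likelihood ratio test and no filter, 7 and 5 lower with the last 2, and 1 to 3 in each direction leaving out each library. Summed levels of inhibitory nuclei below 0.1% mt- UMIs were 1619 CPM in fasted libraries, with 617 (fed) and 705 (fasted) in complex I and, in fasted libraries, 144 in II, 162 in III, 219 in IV and 389 in V. As means of single nuclei they were 770 in complex I and 289 in complex IV in fasted libraries, and 1754 for all members in fed oligodendrocyte-like nuclei. Signs turned for Cox8a in OPC-like nuclei (−0.15 below 2% ribosomal protein UMIs, −0.47 to 1.12 leaving out each library, the lowest without fed replicate 3), Cox7b2 on fasting in inhibitory nuclei (0.17 below 0.1% mt- UMIs) and ENSMUSG00000116933 on fasting in mt-rich barcodes (−0.019 to 0.95, the lowest without fed replicate 1). Without fasted replicate 2 they turned for Atp5g1 (−7.08, up to 11.07 leaving out others) and Ndufb9 (−7.39, up to 11.52) in the interaction of oligodendrocyte-like nuclei, values that depend on the prior count, and for Cox4i1 (−0.17, up to 1.46) and Cox6a1 (−0.083, up to 1.87) in oligodendrocyte-like against inhibitory nuclei. The cause was not tested for any of these. In all, 338 alternative values of the main results stayed near the main value and 52 moved. A count stayed when it was equal or of similar size, and a summed level when it lay within the SD of its group. Among single members, 516 values kept their direction and side of the threshold, 29 became stronger, 41 weaker and 8 turned. The replicate block changed no call other than those given here for fasting. Fasting in OPC-like nuclei could not be fitted (8 nuclei in fasted replicate 1), nor could glia below 0.1% mt- UMIs or oligodendrocyte-like nuclei below 0.3%. Depth also limits the glial results, since 11 to 77 of the 89 members per library had under 10 UMIs in astrocyte-like and 21 to 89 in oligodendrocyte-like nuclei.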
